A study of Mus musculus with 4 samples.

Results

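The genes described here are 8 genes for zinc-finger transcription factors that mark or oppose commitment to a neuronal fate: *Myt1*, *Myt1l* and *St18* of the myelin transcription factor family, *Insm1* and *Insm2*, the Scratch genes *Scrt1* and *Scrt2*, and *Rest*. They were taken by symbol from the 24062 gene rows of an RNA-seq count table of the developing mouse retina, and all 8 were found. The retinas came from E13.5 embryos, that is at mid-gestation, on a mixed C57BL/6 and 129 background. Wildtype retinas, for which no modified allele is named, were compared with *Nrf1 f/f;Six3-Cre* retinas. In the latter both copies of *Nrf1* carry loxP sites and Six3-Cre acts in retinal progenitor cells. *Nrf1* is a regulator of genes needed for mitochondrial biogenesis. There were 2 libraries per genotype, each from RNA of pooled retinas of several embryos. The labels do not say whether the pools came from separate litters, so the p-values measure the spread between these libraries.

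*Myt1*, *Myt1l* and *St18* encode proteins with zinc fingers of the C2HC type that are made in newborn neurons, and *Myt1l* is known for holding down genes of other cell fates. The proteins of *Insm1*, *Insm2* and the Scratch genes begin with a short repressor domain called SNAG, and the Scratch genes belong to the Snail superfamily. In *Insm1* and several other SNAG proteins this domain binds the histone demethylase LSD1, and both *Insm1* and the Scratch genes are switched on as neural progenitors leave the cell cycle. REST is a repressor of neuronal genes in progenitors and in cells outside the nervous system. It binds a DNA element called RE1 and works through the corepressors CoREST, with LSD1, and Sin3.

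*Insm2* and the Scratch genes share the start of their reading frames. The first 60 coding bases of *Insm2*, *Scrt1* and *Scrt2* are shown because they encode that domain, with capitals for bases that are identical in these 3 genes (GENCODE annotation of GRCm38, each read on its coding strand).
Insm2: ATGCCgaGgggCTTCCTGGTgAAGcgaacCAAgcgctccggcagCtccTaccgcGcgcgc
Scrt1: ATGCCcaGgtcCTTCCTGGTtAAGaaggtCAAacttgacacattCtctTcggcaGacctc
Scrt2: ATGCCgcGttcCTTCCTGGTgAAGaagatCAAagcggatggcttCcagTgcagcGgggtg
The first coding base lies at position 55599473 of chromosome 12 for *Insm2*, 76521705 of chromosome 15 for *Scrt1* and 152082050 of chromosome 2 for *Scrt2*. Of the 60 bases, 24 were identical in the 3 genes, and 15 of these lay within the first 21 bases. These first 21 bases encode 7 residues, of which 6 were the same in all 3 proteins. *Scrt2* matched *Insm2* at 34 of 60 bases and *Scrt1* did at 32.

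The Myt family shares its fingers instead. The 75 coding bases of 1 C2HC finger are shown for its 3 genes because this finger is nearly the same in all of them, with capitals for bases identical in the 3.
Myt1: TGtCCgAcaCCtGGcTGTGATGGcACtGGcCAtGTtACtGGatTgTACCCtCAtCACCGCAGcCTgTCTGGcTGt
Myt1l: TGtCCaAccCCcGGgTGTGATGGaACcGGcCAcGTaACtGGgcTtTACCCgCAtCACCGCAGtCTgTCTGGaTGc
St18: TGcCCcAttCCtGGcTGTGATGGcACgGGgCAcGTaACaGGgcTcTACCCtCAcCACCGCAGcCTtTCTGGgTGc
The stretches encode residues 486 to 510 of *Myt1*, 507 to 531 of *Myt1l* and 366 to 390 of *St18*. They were identical at 54 of 75 bases and at 24 of 25 encoded residues. The longest reading frames held 7 such C2HC signatures in *Myt1* and 6 each in *Myt1l* and *St18*. REST held 9 signatures of the C2H2 type and each of *Insm1*, *Insm2*, *Scrt1* and *Scrt2* held 4. Signatures are matches to a set spacing of cysteines and histidines, so fingers with another spacing are not counted. RefSeq promoter windows of GRCm38.p6 around the start of a gene were at hand for 3 of the 8 genes (*Myt1*, *Myt1l* and *Insm2*, 9 windows). The core of the NRF1 motif, GCATGCGC on either strand, was in 0 of these 9 windows and in 2.71% of all 32851 windows. At so low a share, 0 of 9 windows cannot tell whether NRF1 acts on these genes.

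In the mutant retinas, 6 of the 8 genes fell: *Myt1l*, *Scrt1*, *Myt1*, *St18*, *Scrt2* and *Insm2*. The fall was 5.70-fold for *Myt1l* and between 1.66-fold and 2.68-fold for the other 5. *Insm1* and *Rest* had higher levels in both mutant libraries than in either wildtype library, by 1.28-fold and 1.33-fold, and neither reached the 1.4-fold change that a call required. A gene was called when its fold change was at least 1.4 and its adjusted p at most 0.2, the thresholds used in the study, in edgeR's quasi-likelihood test with Benjamini-Hochberg adjustment over all 15762 tested genes. By this rule 8.04% of all tested genes were called lower and 12.8% higher. Of the 8 genes 6 were called lower and 0 higher, although edgeR gave *Insm1* and *Rest*, 2 genes, an unadjusted p below 0.05 in the higher direction. DESeq2 also called 6 lower and 0 higher. The libraries of the genotypes did not overlap for any of the 8 genes, nor for 62.5% of all tested genes. The median log2 fold change was -1.15 over the 8 genes and 0.0007 over all tested genes.

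Levels of single genes are given in CPM, the reads of a gene relative to the reads on tested genes of that library, scaled with edgeR's TMM factors. Sums over marker lists are in CPM relative to all reads on genes, without TMM factors. The libraries held 74577660 to 85933945 reads on genes. *Nrf1* itself had 9052 and 7789 counts in wildtype libraries against 8594 and 8284 in mutant libraries (log2 fold change -0.03, adjusted p = 0.794 from edgeR), so a count over the whole gene does not show the deletion and does not check the labels. Progenitor markers were abundant, with a summed level of 8210 and 8580 CPM in wildtype and 6260 and 6760 CPM in mutant libraries, and 2 of 9 were called lower, *Ccnd1* (log2 fold change -0.88) and *Fgf15* (-0.70). Of 11 markers of retinal ganglion cells (RGCs), the first neurons born in the retina, 9 were called lower, 1 higher (*Thy1*, on 1, 1, 11 and 25 counts) and 1 was not called. Their sum was 1520 and 1700 CPM in wildtype and 605 and 459 CPM in mutant libraries. Most markers of other cells and of tissues around the retina were higher in the mutant libraries. All 8 lens markers were called higher, with sums of 136 and 368 CPM in wildtype against 7730 and 3140 CPM in mutant libraries, as were all 8 macrophage and microglia markers (68.4 to 76.8 against 232 to 278 CPM) and the 5 tested markers of pigment epithelium (160 to 228 against 407 to 430 CPM). Of the 7 mesenchyme markers 5 were called higher by edgeR and 4 by DESeq2 (162 to 231 against 293 to 335 CPM). Of the 5 endothelial markers 3 were called higher and 1 lower, and their sum (252 to 254 against 234 to 245 CPM) was mostly *Kdr*, the one called lower (mean 205 against 141 CPM), while *Pecam1*, *Cdh5* and *Tek* rose by 1.13, 1.21 and 1.96 on the log2 scale. The call of *Kdr* was lost in a test against the 1.4-fold limit itself. Of 6 erythroid markers, *Hba-a1* and *Hbb-bt* were at 0 in all libraries, and 1 of the 4 tested was called higher (571 to 658 against 718 to 722 CPM). That call was lost without wildtype replicate 1, with limma on the deposited values and with a test against the 1.4-fold limit itself.

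**Figure D1:**
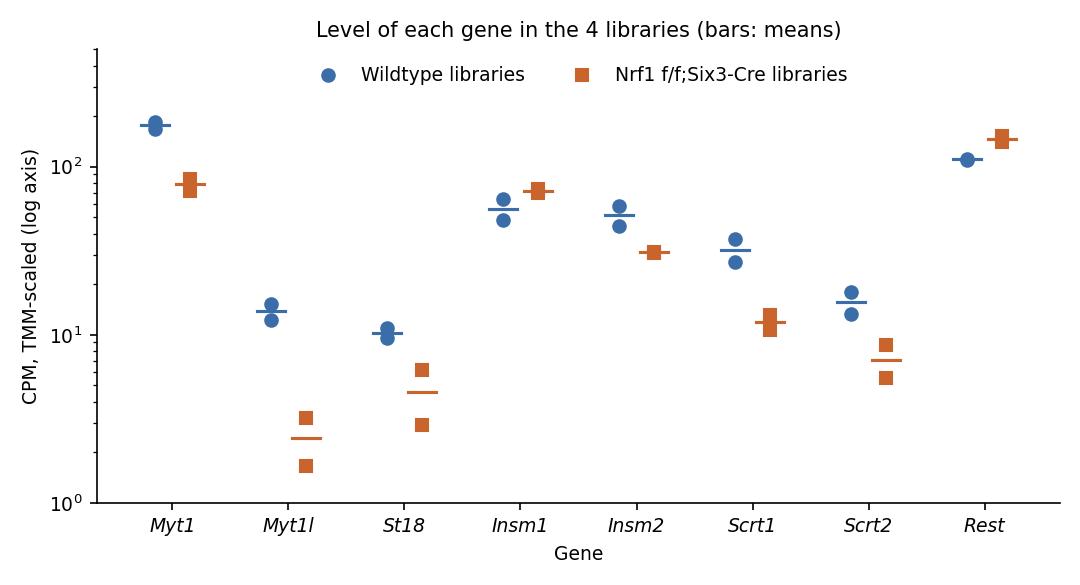
Level of the 8 genes in each of the 4 libraries, in CPM after TMM scaling, on a log axis; points are libraries and bars are genotype means (n = 2). The mutant points lie below the wildtype points for *Myt1*, *Myt1l*, *St18*, *Insm2*, *Scrt1* and *Scrt2* and above them for *Insm1* and *Rest*.

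*Myt1* was the most abundant of the 3 Myt family genes. It lies on the plus strand of chromosome 2 (chr2:181763332-181827797, GRCm38) with 25 merged exons. Its counts were 14740 and 13620 in wildtype libraries against 7044 and 5968 in mutant libraries, or 168 and 184 CPM against 84.8 and 72.1 CPM. Both mutant libraries lay far below both wildtype libraries. The mean fell from 176 ± 10.8 to 78.5 ± 8.95 CPM (SD, n = 2; 44.6% of wildtype). Its log2 fold change was -1.17 (SE 0.10, 95% interval -1.39 to -0.94, adjusted p = 0.000133 from edgeR). In these bulk libraries, fewer cells that express a gene and less RNA per cell cannot be told apart.

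*Myt1l* had the largest fold change of the 8 genes. It spans chr12:29528384-29923213 on the plus strand with 30 merged exons, of which 633 bp overlap *Gm20208* on the opposite strand, and the sources used here do not state whether the counting used strand. It had 1079 and 1137 counts in wildtype libraries against 265 and 137 counts in mutant libraries, or 12.3 and 15.3 CPM against 3.19 and 1.66 CPM. The mutant libraries were both low but differed from each other 1.93-fold. The mean fell from 13.8 ± 2.13 to 2.42 ± 1.08 CPM (SD, n = 2; 17.5% of wildtype). The log2 fold change was -2.51 (SE 0.28, 95% interval -3.14 to -1.88, adjusted p = 0.000375 from edgeR). On the log2 values that the authors deposited, limma gave a smaller log2 fold change of -1.38 and still called the gene. The lowest of those values was 8.13 in every library, and the part of this floor in the smaller change was not tested.

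*St18*, also known as *Myt3*, lies at chr1:6487231-6860940 on the plus strand with 29 merged exons. It had 955 and 714 counts in wildtype libraries against 516 and 240 counts in mutant libraries, or 10.9 and 9.63 CPM against 6.21 and 2.90 CPM. The groups did not overlap, but the mutant libraries differed 2.14-fold, the widest gap of the 8 genes. The mean fell from 10.3 ± 0.904 to 4.56 ± 2.34 CPM (SD, n = 2; 44.4% of wildtype). The log2 fold change was -1.17 (SE 0.30, 95% interval -1.85 to -0.49, adjusted p = 0.0219 from edgeR). The size rested on which mutant library was used: the log2 fold change was -0.73 without mutant replicate 2 and -1.82 without mutant replicate 1, and -0.70 by limma on the deposited log2 values, with a call each time.

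Levels of different genes were compared as CPM per kb of exon model. On this scale the 3 family members summed to 26.0 and 28.1 in wildtype libraries against 13.0 and 10.6 in mutant libraries, so that the mean sum was 43.6% of wildtype. *Myt1* made up 90.1% and 90.8% of that sum in wildtype libraries against 90.8% and 94.7% in mutant libraries. The share of *Myt1l* was 3.38% and 3.89% in wildtype libraries against 1.75% and 1.11% in mutant libraries, while that of *St18* was 6.50% and 5.30% against 7.40% and 4.23%, with overlapping groups. The log2 ratio of *Myt1l* to *Myt1* per kb was -4.73 and -4.55 in wildtype libraries against -5.70 and -6.41 in mutant libraries, a difference of -1.41 (SE 0.37). The log2 ratio of *Myt1l* to *St18* differed by -1.31 (SE 0.26) without overlap, and that of *St18* to *Myt1* by -0.10 (SE 0.46) with overlap. Over the 5 pairs of related genes compared, exact two-sided permutation tests of such ratios cannot give a p below 0.333 with 2 libraries against 2, and the p was 0.333 for both *Myt1l* ratios (adjusted p = 0.417) and 1.0 for *St18* to *Myt1* (adjusted p = 1).

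*Insm1* and *Insm2* differed in direction. *Insm1*, which is known for its part in late divisions of neural progenitors and in neuroendocrine cells, is a gene of 1 exon at chr2:146221921-146225020 on the plus strand. It had 4211 and 4751 counts in wildtype libraries against 5788 and 6083 counts in mutant libraries, or 48.1 and 64.1 CPM against 69.7 and 73.5 CPM. The higher wildtype library came close to the lower mutant library without reaching it. The means were 56.1 ± 11.3 and 71.6 ± 2.72 CPM (SD, n = 2), and the log2 fold change was 0.35 (SE 0.12, 95% interval 0.07 to 0.64, adjusted p = 0.0748 from edgeR). The gene passed the limit on adjusted p but not that on fold change. The wildtype libraries set this value: the log2 fold change was 0.16 without wildtype replicate 1 and 0.58 without wildtype replicate 2, and of the 12 alternatives only the latter called *Insm1* higher (adjusted p = 0.019 from edgeR, against 0.00969 to 0.4 over all alternatives).

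*Insm2* is likewise a gene of 1 exon, at chr12:55599427-55602086 on the plus strand. It had 3884 and 4332 counts in wildtype libraries against 2593 and 2532 counts in mutant libraries, or 44.3 and 58.4 CPM against 31.2 and 30.6 CPM. The mutant libraries were nearly equal and both lay below the lower wildtype library. The mean fell from 51.4 ± 9.94 to 30.9 ± 0.43 CPM (SD, n = 2; 60.2% of wildtype). The log2 fold change was -0.73 (SE 0.12, 95% interval -1.02 to -0.45, adjusted p = 0.00323 from edgeR).

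The balance of the pair differed between the genotypes. Per kb of exon, the log2 ratio of *Insm2* to *Insm1* was 0.10 and 0.09 in wildtype libraries against -0.94 and -1.04 in mutant libraries, a difference of -1.09 (SE 0.05, exact two-sided permutation p = 0.333, the smallest that 2 against 2 can give, adjusted p = 0.417). *Insm2* made up 51.8% and 51.5% of the summed level of both genes in wildtype libraries against 34.3% and 32.7% in mutant libraries. The sum itself overlapped between genotypes, with 32.2 and 42.6 CPM per kb in wildtype libraries against 34.2 and 35.2 CPM per kb in mutant libraries. The mean sum in the mutant was 92.8% of that in wildtype, a difference smaller than the gap between the wildtype libraries.

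**Figure D2:**
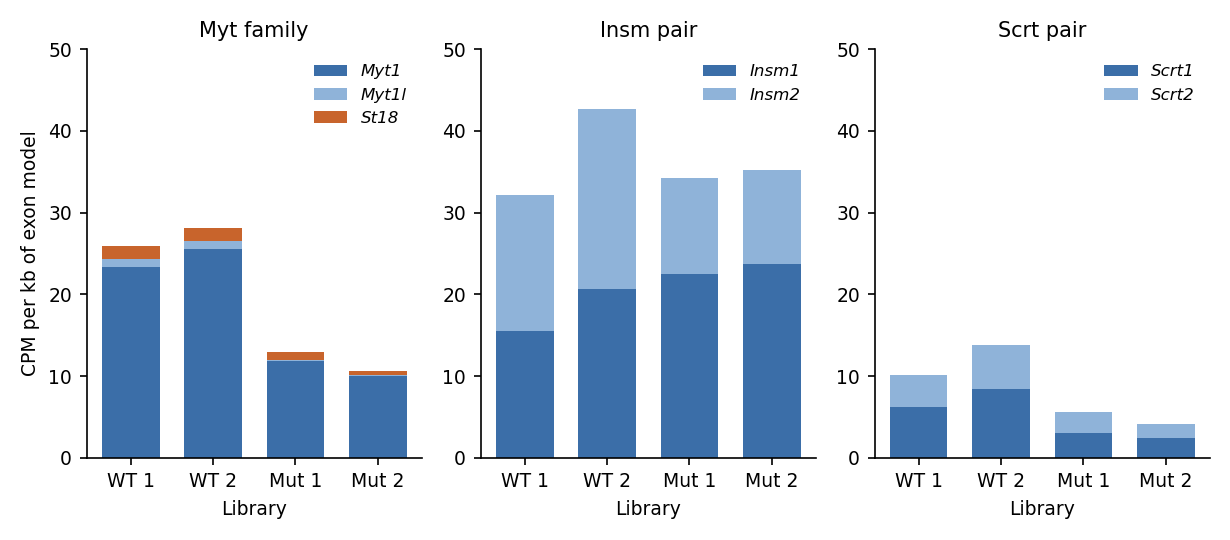
Level per kb of exon model for the Myt family, the Insm pair and the Scrt pair in each library, stacked by gene (vertical axis in CPM per kb, same scale in the 3 panels; WT, wildtype; Mut, *Nrf1 f/f;Six3-Cre*). The Myt and Scrt stacks are lower in both mutant libraries, while the Insm stacks of the genotypes overlap in height and the share of *Insm2* drops from 51.8% and 51.5% to 34.3% and 32.7%.

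Both Scratch genes fell. *Scrt1* lies at chr15:76516203-76522499 on the minus strand with 2 merged exons. It had 2382 and 2750 counts in wildtype libraries against 1097 and 888 counts in mutant libraries, or 27.2 and 37.1 CPM against 13.2 and 10.7 CPM. Even the lower wildtype library was well above both mutant libraries. The mean fell from 32.1 ± 6.98 to 12.0 ± 1.75 CPM (SD, n = 2; 37.2% of wildtype). The log2 fold change was -1.42 (SE 0.16, 95% interval -1.80 to -1.05, adjusted p = 0.000462 from edgeR).

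*Scrt2* lies at chr2:152081529-152095802 on the plus strand, also with 2 merged exons. It had 1164 and 1334 counts in wildtype libraries against 721 and 460 counts in mutant libraries, or 13.3 and 18.0 CPM against 8.68 and 5.56 CPM. The groups did not overlap, and the mutant libraries differed 1.56-fold. The mean fell from 15.6 ± 3.32 to 7.12 ± 2.21 CPM (SD, n = 2; 45.5% of wildtype). The log2 fold change was -1.13 (SE 0.22, 95% interval -1.64 to -0.63, adjusted p = 0.00666 from edgeR). By limma on the deposited log2 values, it was -0.75 and was still called.

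The Scratch pair fell together. Its summed level was 10.1 and 13.8 CPM per kb in wildtype libraries against 5.57 and 4.09 CPM per kb in mutant libraries, a mean of 40.4% of wildtype. The log2 ratio of *Scrt2* to *Scrt1* per kb was -0.67 and -0.68 in wildtype libraries against -0.24 and -0.58 in mutant libraries. The difference of 0.26 (SE 0.17) lay mostly in mutant replicate 1 (exact two-sided permutation p = 0.333, adjusted p = 0.417). Among 8 other genes of SNAG proteins (*Snai1* to *Snai3*, *Gfi1*, *Gfi1b* and *Ovol1* to *Ovol3*), 5 were tested, 0 were called lower by edgeR or DESeq2 with 0 at an unadjusted p below 0.05 in that direction, and 2 were called higher. Of the latter, *Snai2*, a gene of neural crest and mesenchyme, rose from 2.42 ± 0.60 to 4.69 ± 0.0563 CPM (SD, n = 2; log2 fold change 0.95, adjusted p = 0.0205 from edgeR), with no call by limma on the deposited values. *Snai1*, the other one, was low, with 0.217 and 0.566 CPM in wildtype libraries against 1.25 and 1.04 CPM in mutant libraries. The mesenchyme markers given above moved in the same direction, and their part in this was not tested.

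**Figure D3:**
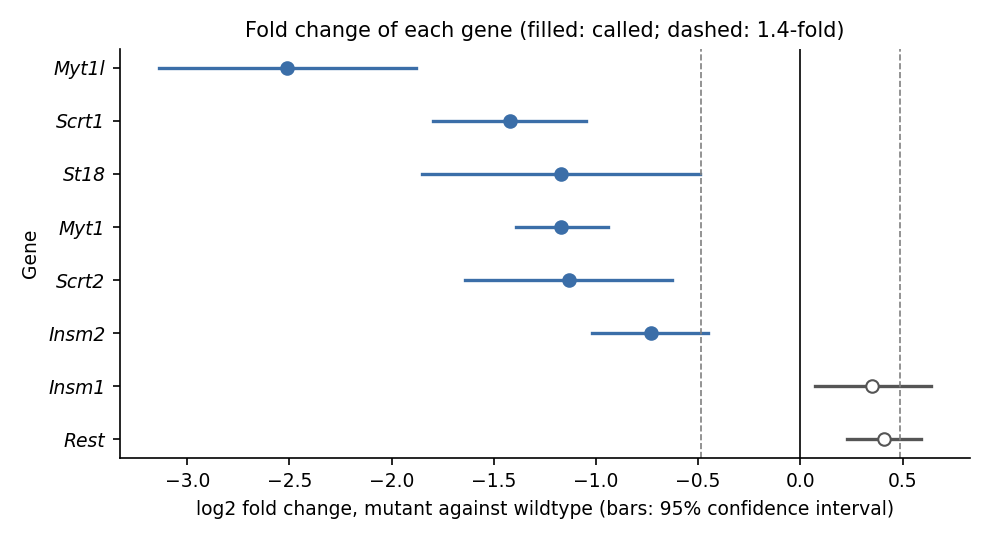
Log2 fold change of the 8 genes, mutant against wildtype, with 95% confidence intervals from edgeR (2 libraries per genotype); filled points were called, open points were not, and dashed lines mark a 1.4-fold change. The intervals of *Insm1* and *Rest* lie above 0 and reach past the 1.4-fold line, and those of the other 6 genes lie below 0.

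*Rest* had a higher level in the mutant libraries. It lies at chr5:77265491-77286432 on the plus strand with 5 merged exons. It had 9733 and 8125 counts in wildtype libraries against 11691 and 12618 counts in mutant libraries, or 111 and 110 CPM against 141 and 153 CPM. The wildtype libraries were almost equal and both mutant libraries were higher. The means were 110 ± 1.13 and 147 ± 8.33 CPM (SD, n = 2; 133% of wildtype). The log2 fold change was 0.41 (SE 0.08, 95% interval 0.23 to 0.59, adjusted p = 0.00574 from edgeR). This passed the limit on adjusted p and stayed under the 1.4-fold limit in all 12 alternatives, in which the log2 fold change was 0.35 to 0.47.

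REST is made in most cells that are not neurons, and the lens, macrophage, pigment epithelium and mesenchyme markers listed above were higher in the mutant libraries too. The mutant library with the higher lens sum (7730 against 3140 CPM) was the one with less *Rest* (141 against 153 CPM), while the macrophage sum (232 against 278 CPM) and the pigment epithelium sum (407 against 430 CPM) ran in the same order as *Rest*, and the mesenchyme sum (335 against 293 CPM) ran in the opposite order, as the lens sum did. Leaving the marker genes of these tissues out of the scaling left the log2 fold change of *Rest* at 0.41 and that of *Insm1* at 0.35. This step changes only the scaling factors, so it cannot show how many reads of *Rest* or *Insm1* came from such tissues. The part of these tissues in the levels of *Rest* and *Insm1* was not tested.

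The order of the 8 genes by level per kb differed between the genotypes. In wildtype it was *Myt1* (24.5 CPM per kb on average), *Insm2* (19.3), *Insm1* (18.1), *Rest* (15.3), *Scrt1* (7.34), *Scrt2* (4.61), *St18* (1.59) and *Myt1l* (0.986). The libraries of *Insm2* and *Insm1* overlapped, at 16.7 and 22.0 against 15.5 and 20.7 CPM per kb, and the lower *Insm1* library was barely above the *Rest* libraries at 15.4 and 15.2 CPM per kb. In the mutant, *Insm1* came first (23.1 CPM per kb) and *Rest* second (20.3), followed by *Insm2* (11.6), *Myt1* (10.9), *Scrt1* (2.73), *Scrt2* (2.10), *St18* (0.705) and *Myt1l* (0.173). There the *Insm2* libraries, at 11.7 and 11.5 CPM per kb, lay within the range of the *Myt1* libraries, the higher of which was at 11.8 CPM per kb. The *Scrt1* libraries, at 3.01 and 2.45 CPM per kb, overlapped those of *Scrt2*, at 2.56 and 1.64 CPM per kb. Among 14958 genes with an exon length, wildtype *Myt1* stood at the 87.5th percentile and *Myt1l* at the 25.8th.

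Genes that REST represses in other tissues were mostly lower in the mutant retinas. Of 25 listed target genes found in the table, 22 were tested (*Nppa*, *Glra1* and *Slc18a3* had too few reads), 18 were called lower, 2 higher and 2 were not called, with a median log2 fold change of -1.31. *Syt4*, a synaptotagmin of secretory vesicles, fell most among those with a mean of at least 1 CPM, from 28.8 and 30.8 CPM to 8.62 and 4.93 CPM (log2 fold change -2.14, SE 0.22, adjusted p = 0.000294 from edgeR). It was followed by *Scg3*, a granin of dense-core vesicles, at -1.81 (SE 0.15, adjusted p = 0.000127 from edgeR). *Stmn2*, a stathmin of growing axons, fell from 299 and 323 CPM to 104 and 78.3 CPM (log2 fold change -1.77, SE 0.13, adjusted p = 9.88e-05 from edgeR). All 3 are also neuronal genes, and the RGC markers fell in the same libraries, led by *Sncg* (-2.44), *Nefl* (-1.95) and *Pou4f1* (-1.84) on the log2 scale. Markers of other retinal neurons moved too. Of 5 markers of amacrine and horizontal cells, 2 were called lower, led by *Ptf1a* (-2.35), and 2 higher, *Tfap2a* (1.42) and *Prox1* (0.73), and their sums did not overlap between genotypes (61.5 to 61.8 CPM in wildtype, 64.4 to 94.0 CPM in mutant libraries). The largest part of these sums was *Prox1* (mean 35.0 CPM in wildtype and 57.9 CPM in mutant libraries). In mutant replicates 1 and 2, *Prox1* had 68.5 and 47.3 CPM and *Tfap2a* 2.60 and 1.16 CPM. The lens sum (7730 and 3140 CPM) ran in the same order, as did *Ptf1a*, *Tfap2b* and *Lhx1*. The part of lens tissue in these levels was not tested. Of 5 markers of photoreceptor precursors, 2 were called lower, *Rxrg* (-1.19) and *Crx* (-0.50), 0 were called higher by edgeR or DESeq2 with 0 higher at an unadjusted p below 0.05, and all 5 had log2 fold changes below 0 (sums of 274 to 278 against 229 to 230 CPM). With 1 library left out, *Ptf1a* kept its call and ranged from -3.15 without mutant replicate 1 to -1.84 without mutant replicate 2. The call was lost for *Tfap2a* without wildtype replicate 2 or mutant replicate 1 (range 0.73 to 2.12), with limma on the deposited values, with a test against the 1.4-fold limit itself and at an adjusted p of at most 0.05. It was lost for *Prox1* without mutant replicate 1 (0.44). It was lost for *Crx* without wildtype replicate 1 or mutant replicate 2 (range -0.56 to -0.44), with upper-quartile scaling, with limma and with the test against the 1.4-fold limit. The part of these cell types in the fall of the target genes and of the zinc-finger genes was not tested.

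A pair of target genes rose. *Bdnf*, a neurotrophin, had 12.7 and 12.8 CPM in wildtype libraries against 25.9 and 29.4 CPM in mutant libraries (log2 fold change 1.12, SE 0.11, adjusted p = 0.000256 from edgeR). *Chrm4*, a muscarinic acetylcholine receptor gene, had 1.66 and 0.93 CPM against 2.83 and 2.85 CPM (log2 fold change 1.13, SE 0.33, adjusted p = 0.0408 from edgeR), with no call by limma on the deposited values. Of the other 2, *Calb1* stood at 0.47 and *Mapk8ip1* at -0.41 on the log2 scale, chosen here after their values were seen.

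The genes of the REST and SNAG corepressors had log2 fold changes closer to 0 than the zinc-finger genes that fell. Of 12 genes of the LSD1-CoREST complex, 0 were called in either direction by edgeR or DESeq2, with 3 lower and 0 higher at an unadjusted p below 0.05 in edgeR, and a median log2 fold change of -0.13. The extremes, picked after their values were seen, were *Rcor2*, a CoREST gene of neural progenitors, with 237 and 249 CPM against 172 and 194 CPM (log2 fold change -0.41, adjusted p = 0.00948 from edgeR, under 1.4-fold), and *Hmg20b* at 0.18. Of 10 other REST cofactors, among them *Sin3a* and *Ehmt2*, 0 were called by edgeR or DESeq2, with 2 lower and 1 higher at an unadjusted p below 0.05, a median of -0.05 and a range of -0.29 to 0.37 on the log2 scale.

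Among 6 genes for the turnover and splicing of REST, 1 was called lower and 0 higher by both edgeR and DESeq2, and 0 were higher at an unadjusted p below 0.05. The one that fell was *Srrm3*, a splicing factor of neurons, with 24.9 and 33.5 CPM in wildtype libraries against 12.2 and 10.9 CPM in mutant libraries (log2 fold change -1.34, SE 0.15, adjusted p = 0.000421 from edgeR). Its relative *Srrm4*, which promotes a neuronal splice form of *Rest*, had 65.6 and 74.1 CPM against 73.7 and 53.6 CPM, with overlapping groups (log2 fold change -0.13, adjusted p = 0.549 from edgeR). A whole-gene count of *Rest* does not separate its splice forms.

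**Figure D4:**
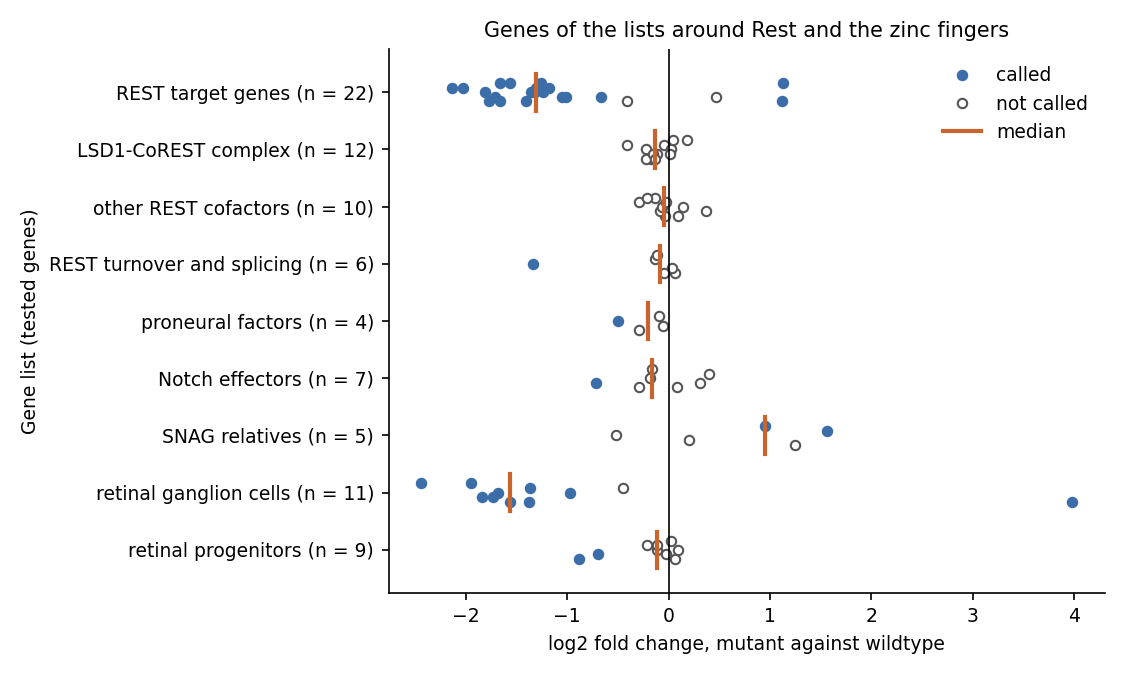
Log2 fold change, mutant against wildtype, of the tested genes in lists around *Rest* and the zinc-finger genes; each point is a gene, filled where called, and orange bars are list medians. The REST targets (median -1.31) and RGC markers (median -1.56) lie mostly below 0, the corepressor lists centre near 0, and the RGC marker far to the right is *Thy1*, with 1 count in each wildtype library.

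The 4 proneural factors reported here, which have a part in neurogenesis, had smaller log2 fold changes than *Myt1* or *Scrt1*. Of these 4, 1 was called lower and 0 higher by both edgeR and DESeq2, with 0 higher at an unadjusted p below 0.05, and the median log2 fold change was -0.20. *Neurod4* fell by 0.50 on the log2 scale (SE 0.11, adjusted p = 0.0112 from edgeR). It lies at the 1.4-fold limit and lost its call with upper-quartile scaling, with limma on the deposited values, with a test against the 1.4-fold limit itself, and without wildtype replicate 1 or mutant replicate 2 (range -0.67 to -0.34 with 1 library left out). Of 7 listed effectors of Notch signalling, which holds cells in the progenitor state (5 *Hes* and *Hey* genes, and *Id1* and *Id3*, which are chiefly targets of BMP signalling), 1 was called lower and 0 higher by both tools, with 2 lower (*Hes5* and *Hes1*, the latter at -0.29) and 1 higher (*Id3*, at 0.31) at an unadjusted p below 0.05, and the median was -0.16. *Hes5* fell from 190 and 262 CPM to 141 and 133 CPM (log2 fold change -0.72, SE 0.14, adjusted p = 0.00527 from edgeR), a call lost without wildtype replicate 2, where the value was -0.47.

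For 1 gene of each family, the 3 genes with the most similar pattern over the 4 libraries were sought among 11326 genes with a mean of at least 5 CPM, by the Euclidean distance between log2 CPM values centred on each gene's mean. Closest to *Myt1* were the netrin receptor gene *Unc5a* (distance 0.030), *Aplp1* of the amyloid precursor family (0.045) and *Mgst3* (0.053). Closest to *Scrt1* were the sodium channel gene *Scn2a1* (0.116), which is on the REST target list, *Srrm3* (0.132) and *Npdc1* (0.144). Closest to *Insm1* were *Nrp* (0.031), *1810043H04Rik* (0.044) and the zinc-finger gene *Zfp513* (0.049), and closest to *Rest* were the zinc-finger gene *Zic4* (0.015), *Inppl1* (0.019) and the biliverdin reductase gene *Blvrb* (0.021). With 4 libraries, such distances depend in large part on the fold change.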

How the data were processed

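The 4 RNA-seq libraries of E13.5 retinas, 2 wildtype and 2 mutant, were grouped by their labels. The authors mapped reads to mm10 with TopHat2 2.7.2 and deposited whole-number HTSeq counts per gene, without normalization. They also deposited normalized values on a log2 scale, and how these were made is not given in the sources used here, beyond DESeq and limma being named in the submitters' processing notes. These values had a floor of 8.13 in every library. Its part in the smaller changes and lost calls of low genes by limma was not tested. The 5 summary rows of HTSeq, 74.0% to 75.0% of entries, stayed out. PCR copies are not independent molecules.

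Genes were filtered with filterByExpr (minimum count 10), scaled with TMM factors (0.992 to 1.02) and compared with edgeR 4.0.16 (R 4.3.3, quasi-likelihood test), a step that was tested on simulated data. The biological coefficient of variation was 12%. Standard errors were taken from each gene's F statistic and fold change. The study's Cuffdiff step was not repeated. Exon models were merged GENCODE exons of GRCm38. Alternatives were DESeq2 1.42.0, limma 3.58.1 on the deposited log2 values, other scalings, filters and thresholds, a replicate block, and each library left out. The 8 genes and the gene lists were chosen with earlier results of these data known. From each list, up to 3 called genes per direction with the largest fold change and a mean of at least 1 CPM were named. For markers of cells and tissues outside the neural retina only counts, sums and lost calls are given, apart from the endothelial markers and 2 erythroid markers at 0. The result for 1 listed gene and the coding bases of 1 gene are not reported here.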

Additional observations from a re-analysis of the deposited data

How the results depend on the processing

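The count of 6 genes called lower was the same in every alternative, and each of the 6 kept its direction and its call. The count called higher was 0, with a range of 0 to 1 when 1 library was left out, and the 1 was *Insm1*. Its log2 fold change of 0.35 ranged from 0.16 to 0.58 in those fits, with a call without wildtype replicate 2 (0.58). Of 96 results for the 8 genes under alternatives, 95 stayed on the same side of the thresholds and 0 changed direction. Over all tested genes, 1268 were called lower and 2024 higher; limma on the deposited log2 values called 722 and 941, and glmTreat, which tests against the 1.4-fold limit itself, called 743 and 1188. The REST targets called lower numbered 16 to 18. Deviations of same-numbered libraries had a correlation of -0.0025 over tested genes. From 2 libraries per genotype, this cannot show whether library numbers pair the samples. Under the replicate block, 6 of the 8 genes, 1256 of all tested genes lower and 1970 higher were called. With 2 libraries per genotype the intervals are wide for the low genes *Myt1l* and *St18*, whose mutant libraries differed 1.93-fold and 2.14-fold. The cause of these shifts was not tested.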
